A study of Oncorhynchus mykiss with 30 samples.

Results

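Gonads of all-male rainbow trout (Oncorhynchus mykiss) exposed to 0.1 μgEE2/L were compared with gonads of all-male fish kept in the solvent alone, a contrast called CT2. EE2, or 17α-ethynylestradiol, is the synthetic oestrogen of contraceptive pills. The comparison takes the 6 arrays labelled with the nominal concentration of 0.1 μgEE2/L and the 6 solvent control arrays, 12 of the 30 arrays of the series, and uses all 60195 probes of the array. The other 18 arrays come from fish given 0.01, 1 or 10 μgEE2/L, with 6 arrays at each concentration. All fish were exposed for 76 days, between 60 and 136 days after fertilisation, in 3 tanks per concentration. Each array was hybridised with RNA of 1 pool of the gonads of 10 fish, and 2 pools came from each tank. The labels call the tissue testis in every group, including the exposed ones. An array thus reports the average of 10 pairs of gonads, and the spread between arrays is that between pools.

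In fish, the undifferentiated gonad can take either fate for some time, and its sex responds to steroids during this window. Oestrogens given to genetic males then favour ovarian differentiation, which runs through factors such as FOXL2 and aromatase in the somatic cells around the germ cells, while male factors keep the gonad on the testicular path. A gonad that holds both tissues is called an ovotestis or testis-ova. In pools of whole gonads, fewer cells of a type and less RNA per cell cannot be told apart.

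Expression is given as log2 signal, which is log2 of the background-adjusted processed signal after quantile normalisation over the 30 arrays. A change of 1 on this scale is a 2-fold change. Fold changes are 0.1 μgEE2/L minus control, so that a positive value means over-expression at 0.1 μgEE2/L. Each came from a linear model with 1 mean per concentration in limma, and the Benjamini-Hochberg adjustment was made over all probes. A probe was called at an adjusted p below 0.05. Because 2 pools share a tank and the fit takes the 6 pools of a group as independent, these p-values measure the spread between pools. That spread is shared over all concentrations in the fit and not taken from the compared groups alone.

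Before normalisation, the 75th percentile of the signal was 468 to 960 intensity units on the arrays at 0.1 μgEE2/L and 359 to 1238 in the control. The share of probes marked as well above background was 75.6 to 82.7% on the exposed arrays and 75.8 to 86.8% on the controls, and 0 probes were saturated. Some features of single arrays bear on the values below. Replicates 2 and 6 of the control stood apart from the other 4 controls and towards the exposed arrays. Replicates are numbered by the labels of the scanner files. In the deposited log2 table the columns of replicates 2 and 4 of the control are exchanged, as are those of replicates 1 and 6 at 0.1 μgEE2/L, so the number and tank of these 4 arrays are in doubt while their concentration is the same in both sources. Whether arrays were also exchanged between concentrations was not tested. The middle of the array was dim on replicate 1 at 0.1 μgEE2/L, where 19.97% of 14768 middle probes were more than 4-fold below the median of their group, and on replicate 4 of the control, where 19.7% were. The probes of a gene were mostly known by design identifiers only, so that few markers of gonadal cell types could be looked up by name. FOXL2, a transcription factor of granulosa cells, and a probe annotated as similar to the testicular haploid expressed gene THEG were the ones identified. The study's annotation names further sex markers, among them dmrt1, sox9a2, amh and zona pellucida genes, whose probes were not identified here, so the tissue was not checked against Sertoli cell, Leydig cell or oocyte markers.

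At 0.1 μgEE2/L, 16346 probes differed from the control at an adjusted p below 0.05, which is 27.2% of the array. They divide into 7721 over-expressed probes (12.8% of the array) and 8625 under-expressed probes (14.3%). The median fold change was 2.01 among the over-expressed and 1.96 among the under-expressed probes. Changes of more than 2-fold were found for 3894 over-expressed and 4112 under-expressed probes. At more than 8-fold, 408 over-expressed and 238 under-expressed probes remained, and at more than 32-fold 23 and 31. The unadjusted p was below 0.05 for 22302 probes. A fit of the 12 arrays alone, which takes the spread from these groups only, called 10385 probes. Scaling each array to its 75th percentile in place of quantile normalisation gave 6026 over-expressed and 9212 under-expressed probes. The balance of directions thus depended on the scaling. It also differed by place on the array. Outside the middle 6476 probes were over-expressed and 6524 under-expressed, and in the middle 1245 and 2101. With the dim regions set to missing, 8270 probes were over-expressed and 9909 under-expressed.

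**Figure D1:**
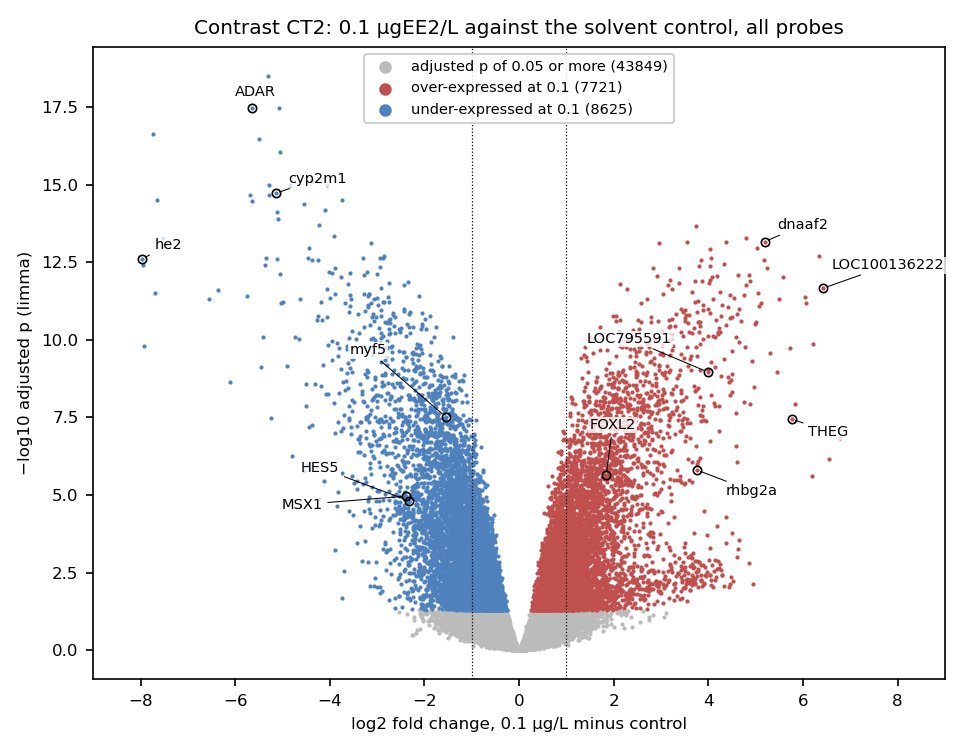
Log2 fold change of 0.1 μgEE2/L minus control (x axis) against −log10 of the adjusted p from limma (y axis) for 60195 probes, with 12 named probes circled and dotted lines at a 2-fold change. Red points are the 7721 over-expressed and blue points the 8625 under-expressed probes, and he2 and LOC100136222 lie near either end of the x axis.

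The groups did not overlap for 2870 of the 7721 over-expressed and 3365 of the 8625 under-expressed probes, and overlapped for most calls. Over all probes, called or not, all 6 arrays at 0.1 μgEE2/L lay above every control for 2916 (4.84% of the array). They lay below every control for 3397 probes (5.64%). The shares that follow are over probes called on these same arrays, which by itself favours separation, and are a description only. Each exposed array on its own lay beyond every control for 68.0 to 77.9% of the over-expressed probes. For the under-expressed probes the share was 80.7 to 85.9% on 5 arrays and 60.4% on replicate 1, the array with the dim middle. In the other direction, the control most often found inside the range of the exposed arrays was replicate 6, for 33.0% of the over-expressed and 38.4% of the under-expressed probes. Replicate 3 of the control was inside it for 11.7% of the over-expressed and 14.5% of the under-expressed probes. Without replicates 2 and 6 of the control, 18958 probes were called, or 31.5% of the array, with 9120 over-expressed and 9838 under-expressed. The median standard deviation of a probe was 0.45 at 0.1 μgEE2/L and 0.45 in the control, and 0.37 over the 4 other controls. It was 0.34 at 0.01, 0.30 at 1 and 0.35 at 10 μgEE2/L, so the spread shared in the fit includes groups with less spread.

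The 4 slides each held arrays of both groups, so the direction of each change was also read within each slide. Slides 1, 2, 3 and 4 held 1, 2, 2 and 1 arrays at 0.1 μgEE2/L and 1, 1, 1 and 3 controls. Over-expressed probes kept their direction within slides 1 to 4 in 92.3, 96.9, 85.9 and 99.1% of cases, and under-expressed probes in 81.9, 98.8, 96.6 and 99.6%. The probes had been called on these same arrays, which by itself favours high shares. The shares are thus a description of the slides and no independent check of direction. The lowest shares came from slide 3, whose only control was replicate 6, and from slide 1, where replicate 1 at 0.1 μgEE2/L met replicate 2 of the control.

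To place the pools at 0.1 μgEE2/L among the other concentrations, each array was projected on an axis that runs from the control mean at 0 to the mean at 10 μgEE2/L at 1, over the 26587 probes called between these groups. Replicates 1 to 6 at 0.1 μgEE2/L lay at 0.56, 0.74, 0.52, 0.58, 0.75 and 0.60, a mean of 0.62 ± 0.10 (SD, n = 6). All 6 were past the midpoint of the axis in this setting, whereas replicate 3 lay at 0.482 with 75th percentile scaling and replicates 1 and 3 at 0.489 and 0.492 with normexp background correction. The controls, each placed on an axis made without it, lay between -0.19 and -0.17 for replicates 1, 3, 4 and 5 and at 0.35 and 0.47 for replicates 2 and 6. The position was 0.38 ± 0.13 at 0.01 μgEE2/L and 0.94 ± 0.08 at 1 μgEE2/L (SD, n = 6 each). The 0.1 μgEE2/L pools lay 0.25 above those at 0.01 μgEE2/L (exact two-sided permutation p = 0.0043, adjusted over 2 tests 0.0043). They lay 0.31 below those at 1 μgEE2/L (exact permutation p = 0.0022, the smallest that 6 against 6 arrays allow, adjusted 0.0043). These tests exchange single pools, and 2 pools share a tank. With the mean of each tank as the unit, the tanks at 0.1 μgEE2/L lay at 0.548 to 0.674, apart from those at 0.01 μgEE2/L (0.275 to 0.476) and at 1 μgEE2/L (0.873 to 1.01). The exact permutation p was then 0.1 for either difference, the smallest that 3 against 3 tanks allow, so neither passed the threshold. With replicates 2 and 6 of the control left out of the axis and pools as the unit, the mean at 0.1 μgEE2/L was 0.66 and the difference from 0.01 μgEE2/L was 0.16 (exact permutation p = 0.037).

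**Figure D2:**
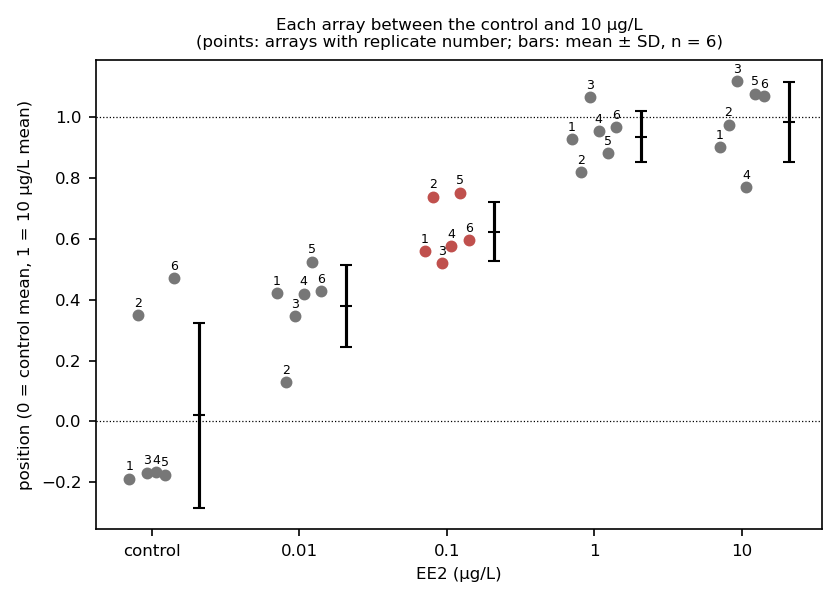
Position of each of the 30 arrays (y axis, no unit) at each EE2 concentration in μg/L (x axis), with points numbered by replicate and bars for the mean ± SD of 6 arrays. The 6 arrays at 0.1 μgEE2/L (red) lie between 0.52 and 0.75, while control replicates 2 and 6 lie at 0.35 and 0.47, above the other controls.

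Some probes were measured in 1 of the groups and not in the other. Well above background on all 6 arrays at 0.1 μgEE2/L and on no control were 33 probes, and 142 probes showed the reverse. Without replicates 2 and 6 of the control these numbers were 82 and 159. Leaving out any control can only raise them, since fewer arrays then have to meet the condition. For such probes only a lower bound of the change can be given, computed against the lowest signal that counted as well above background on each array of the dim group. Here and below, an adjusted p beside a bound belongs to the fitted change in limma, which uses the signals below background. The bound itself was not tested. It holds for the processed signal and this lowest signal only, and another processing of dim signals can give a smaller change. All 33 probes were called and had a bound of more than 2-fold. Of the 142 probes, 138 were called and 114 had such a bound. Probes given by identifier alone are called unannotated, which means that no gene name was linked to them here. The study's own annotation may name them. TC120173, such a probe, ranged over 7.45, 8.19 and 9.52 (lowest, median and highest log2 signal) at 0.1 μgEE2/L and was not well above background in any control. It was at least 36.6-fold higher at 0.1 μgEE2/L (adjusted p = 2.0e-13 in limma). The mean of this probe was 11.25 at 1 μgEE2/L, and the difference of 0.1 minus 1 μgEE2/L was -2.86 (adjusted p = 1.3e-05). TC109829 was at least 30.5-fold higher at 0.1 μgEE2/L, with 7.77, 7.91 and 8.72 there.

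Of the 142 probes measured on every control and on no array at 0.1 μgEE2/L, 31 were well above background on all 6 arrays at 0.01 μgEE2/L, 111 on some and 0 on none. For the 33 probes measured only at 0.1 μgEE2/L these numbers were 1, 26 and 6. TC107189 was not well above background on any array at 0.1 μgEE2/L and had 8.23, 9.17 and 9.91 in the control, which is at least 42.9-fold lower at 0.1 μgEE2/L. Its mean at 0.01 μgEE2/L was 6.05, and it was at least 5.11-fold lower at 0.1 than at 0.01 μgEE2/L (adjusted p = 1.9e-06). TC94754 was at least 39.8-fold lower, against 6.75, 9.56 and 9.70 in the control. Its lowest control value belongs to replicate 4 and the probe lies in the dim middle.

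Among the unannotated probes with all 6 arrays outside the controls, the largest rise was that of TC94769. It had 7.74, 11.22 and 13.02 at 0.1 μgEE2/L and 3.04, 4.14 and 6.86 in the control, a difference of 6.79 (SE 0.8, adjusted p = 1.4e-07). The next, CUST_28634_PI425536763, had 11.08, 14.55 and 15.95 at 0.1 μgEE2/L and 7.0, 7.35 and 10.53 in the control (log2 fold change 6.55, SE 0.84, adjusted p = 7.0e-07). Both were wide within the groups, with replicate 2 the lowest array at 0.1 μgEE2/L and the highest control, so that the gap between the groups was under 1 on the log2 scale for either probe. Neither was called at 0.01 μgEE2/L against the control. The largest falls were those of CUST_2321_PI425536763, with 4.8, 7.22 and 8.14 at 0.1 μgEE2/L and 14.12, 14.45 and 15.53 in the control (log2 fold change -7.95, SE 0.47, adjusted p = 3.9e-13), and of CUST_193_PI425708691, with 3.40, 6.10 and 6.94 at 0.1 μgEE2/L and 13.30, 13.50 and 14.40 in the control (log2 fold change -7.92, SE 0.64, adjusted p = 1.6e-10). For these the groups were separated by more than 5 on the log2 scale. CUST_2321_PI425536763 was not well above background on any array at 1 μgEE2/L, and was at least 7.96-fold higher at 0.1 than at 1 μgEE2/L (adjusted p = 4.7e-06).

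**Figure D3:**
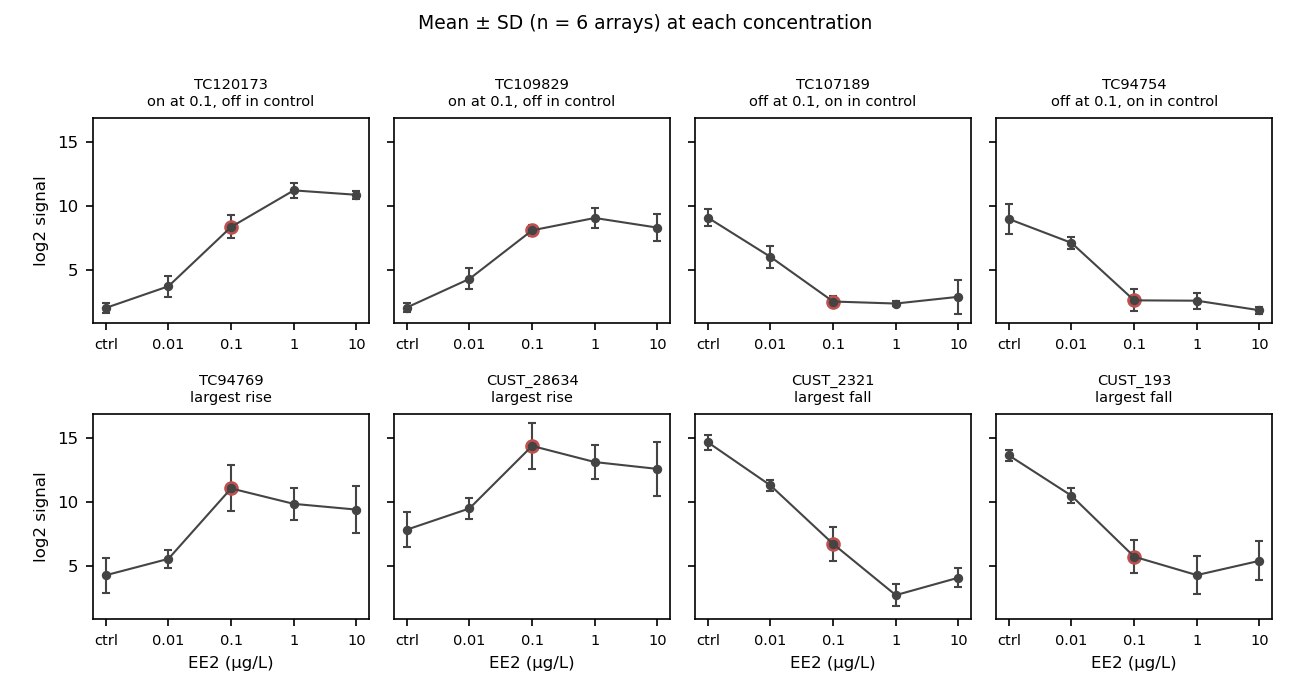
Mean log2 signal ± SD of 6 arrays (y axis) at each EE2 concentration in μg/L (x axis) for 8 unannotated probes, with the 0.1 μgEE2/L mean in red. TC120173 and TC109829 have means of 8.39 and 8.13 at 0.1 μgEE2/L and lie below background in the control, where their plotted means are no measured levels, whereas CUST_2321_PI425536763 and CUST_193_PI425708691 have means of 6.75 and 5.75 at 0.1 μgEE2/L and near 14 in the control.

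Named genes came first from 2 tables of candidate biomarkers. The study picked the genes of both tables on these same arrays for calls in CT1 (the contrast of 0.01 μgEE2/L) and CT2. For the specific table it also dropped genes called in CT3 or CT4 (the contrasts of 1 and 10 μgEE2/L), and for the sensitive table it took strongly changed genes called in CT3 or CT4 as well. The probe of a gene was found through its printed changes in CT1 and CT2. Calls of these genes in CT2 and their levels across the concentrations are thus a description, and no evidence of a direction or of a dose pattern. In the table of specific genes, 3 of 7 probes were over-expressed and 4 under-expressed. In the table of sensitive genes, 9 of 16 were over-expressed and 7 under-expressed. The counts include 3 genes of the sensitive table that are not given one by one here.

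The over-expressed specific genes were FOXL2, spon2 and cdkn1b. FOXL2 (TC126540) had 9.47, 9.79 and 10.05 at 0.1 μgEE2/L and 6.91, 7.75 and 9.03 in the control, without overlap. The 2 highest controls were replicates 2 and 6, and without them the log2 fold change was 2.37, against 1.84 with all controls (SE 0.26, adjusted p = 2.2e-06). Within slides 1 to 4 the difference was 0.78, 2.02, 0.93 and 2.33. In dose order, its mean was 7.95 in the control, 9.93 at 0.01, 9.79 at 0.1, 8.65 at 1 and 8.69 at 10 μgEE2/L. A lower level at 1 and 10 μgEE2/L is what the table was selected for. In the fit used here FOXL2 was still called there, although the study's selection dropped such genes. Its log2 fold change against the control was 0.70 at 1 μgEE2/L (adjusted p = 0.029 in limma) and 0.74 at 10 μgEE2/L (adjusted p = 0.020). The extracellular matrix protein spon2 was dim, with 4.93, 5.26 and 5.68 at 0.1 μgEE2/L and 1.64, 3.67 and 4.52 in the control. Of the controls, 3 of 6 were well above background for it. The inhibitor of cyclin-dependent kinases cdkn1b had 4.24, 4.75 and 5.44 at 0.1 μgEE2/L and 2.46, 3.96 and 4.53 in the control, so the groups overlapped. Its log2 fold change of 0.88 (SE 0.32, adjusted p = 0.041) was lost once the dim middle was set to missing (0.54, adjusted p = 0.19). Its lowest control value lies there.

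The under-expressed specific genes all serve energy metabolism or the breakdown of aldehydes. SLC25A4 and SLC25A6 are translocases that exchange ADP and ATP across the inner mitochondrial membrane. SLC25A4 (CUST_21720_PI425536763) had 4.71, 6.10 and 7.09 at 0.1 μgEE2/L and 7.13, 7.59 and 7.83 in the control, where the gap between the groups was small but complete. SLC25A6 (CUST_8591_PI425536763) had 8.06, 8.57 and 9.40 at 0.1 μgEE2/L and 9.26, 9.73 and 10.07 in the control, and 5 of 6 exposed arrays were below every control (log2 fold change -1.09, SE 0.31, adjusted p = 0.0088). TPI1, the glycolytic triosephosphate isomerase, had 6.11, 7.41 and 8.39 at 0.1 μgEE2/L and 8.34, 9.03 and 9.40 in the control (log2 fold change -1.64, SE 0.32, adjusted p = 0.00021). The aldehyde dehydrogenase Aldh7a1 had 4.87, 6.26 and 7.32 at 0.1 μgEE2/L and 7.16, 7.44 and 8.14 in the control (log2 fold change -1.22, SE 0.30, adjusted p = 0.0026). For each of these genes the highest exposed array was replicate 1. Within slide 1, which holds it, the difference was -0.45 for SLC25A4, -0.21 for SLC25A6, -0.52 for TPI1 and -0.24 for Aldh7a1. Within the other slides the differences ran from -2.55 to -0.81. Scheffe's criterion over the 5 groups ended the calls of SLC25A6 (adjusted p = 0.18) and Aldh7a1 (adjusted p = 0.069).

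Among the over-expressed sensitive genes, the groups were far apart. LOC100136222 (CUST_123_PI425536763), annotated as CD8 beta, a chain of the co-receptor of cytotoxic T cells, had 8.97, 9.35 and 9.85 at 0.1 μgEE2/L and 1.77, 2.86 and 4.55 in the control. Only 1 control was well above background, and the log2 fold change was 6.43 (SE 0.41, adjusted p = 2.2e-12). The axonemal dynein assembly factor dnaaf2 (CUST_19687_PI425536763), needed in the cytoplasm of ciliated and flagellated cells, had 7.72, 8.47 and 9.04 at 0.1 μgEE2/L and 2.60, 3.19 and 4.46 in the control, again with 1 control above background (log2 fold change 5.19, SE 0.28, adjusted p = 6.9e-14). THEG, known in mammals from haploid male germ cells, had 8.62, 13.07 and 13.69 at 0.1 μgEE2/L and 4.63, 6.82 and 8.8 in the control. Its log2 fold change was 5.76 (SE 0.62, adjusted p = 3.6e-08), and 5 of 6 exposed arrays were above every control. The exception was replicate 1, whose dim middle holds the probe, and with that region missing the change was 6.10.

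LOC795591, annotated as similar to tubulin alpha 6, was bright and even at 0.1 μgEE2/L, with 17.50, 17.62 and 17.73, and had 12.05, 13.80 and 15.57 in the control (log2 fold change 3.99, SE 0.36, adjusted p = 1.1e-09). Tubulin alpha is a subunit of microtubules. The probe of thrap3, an RNA-binding protein of transcription and splicing, had 9.40, 9.62 and 10.04 at 0.1 μgEE2/L and 3.89, 5.05 and 5.99 in the control, a rise of 4.63 (SE 0.28, adjusted p = 7.9e-13). For si:dkey-162h11.2, CU856539.4 and 2 probes that the study left without annotation (TC95845 and TC109048), all 6 arrays were above every control and log2 fold changes were 5.57, 6.06, 6.22 and 4.29. In this table, chosen for large changes in CT1 and calls in CT2, the mean of all 9 over-expressed genes was higher at 0.1 than at 0.01 μgEE2/L, and 8 of the differences were called in limma, where 6.03% of all probes were called higher. LOC795591 was the exception (0.88, adjusted p = 0.13). Differences between 0.1 and 1 μgEE2/L ran from -0.85 for THEG to 0.34 for thrap3, and 0 of the 9 were called (0 also at an unadjusted p below 0.05), where 6.26% of all probes were called in either direction. Nothing is read from these counts, since the selection used the same arrays. With normexp background correction and its offset of 50 intensity units, the changes of dnaaf2, LOC100136222 and TC109048 were 2.38, 3.24 and 1.8, each still past the threshold.

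The under-expressed sensitive genes included the RNA-editing deaminase ADAR, the hatching enzyme he2, the cytochrome P450 cyp2m1 and the Notch target HES5. ADAR (CUST_26298_PI425536763) had 6.84, 7.39 and 7.73 at 0.1 μgEE2/L and 12.47, 12.95 and 13.56 in the control (log2 fold change -5.65, SE 0.19, adjusted p = 3.5e-18). The arrays of both groups were close together, with a gap of more than 4 between them. At 0.01 μgEE2/L the mean of ADAR was 10.10, and the difference of 0.1 minus 0.01 μgEE2/L was -2.76 (adjusted p = 1.1e-10). The probe of cyp2m1 (TC96342) had 5.38, 6.6 and 7.10 at 0.1 μgEE2/L and 11.26, 11.71 and 11.99 in the control (log2 fold change -5.14, SE 0.23, adjusted p = 1.9e-15), and its mean of 9.13 at 0.01 μgEE2/L lay between them. ADAR and cyp2m1 were thus part of the way down at the lower concentration.

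The largest fall of a named gene was that of he2 (TC113380), a protease that digests the egg envelope at hatching. It had 2.84, 5.44 and 6.00 at 0.1 μgEE2/L and 12.12, 12.86 and 13.68 in the control, and 4 of 6 exposed arrays were well above background (log2 fold change -7.97, SE 0.46, adjusted p = 2.5e-13). In dose order, its mean log2 signal was 12.93 in the control, 9.09 at 0.01, 4.96 at 0.1, 2.55 at 1 and 2.68 at 10 μgEE2/L. The difference of 0.1 minus 0.01 μgEE2/L was -4.14 (adjusted p = 2.5e-07). On no array at 1 μgEE2/L was he2 well above background, and it was at least 2.38-fold higher at 0.1 than at 1 μgEE2/L (adjusted p = 0.0018). HES5 (TC103433), a transcriptional repressor, behaved otherwise. It had 6.86, 7.33 and 8.59 at 0.1 μgEE2/L and 8.68, 10.00 and 10.74 in the control, narrowly without overlap (log2 fold change -2.33, SE 0.37, adjusted p = 1.5e-05). Its mean was 5.09 at 0.01 μgEE2/L, below that at 0.1 μgEE2/L, and the difference of 0.1 minus 0.01 μgEE2/L was 2.36 (adjusted p = 3.5e-05).

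**Figure D4:**
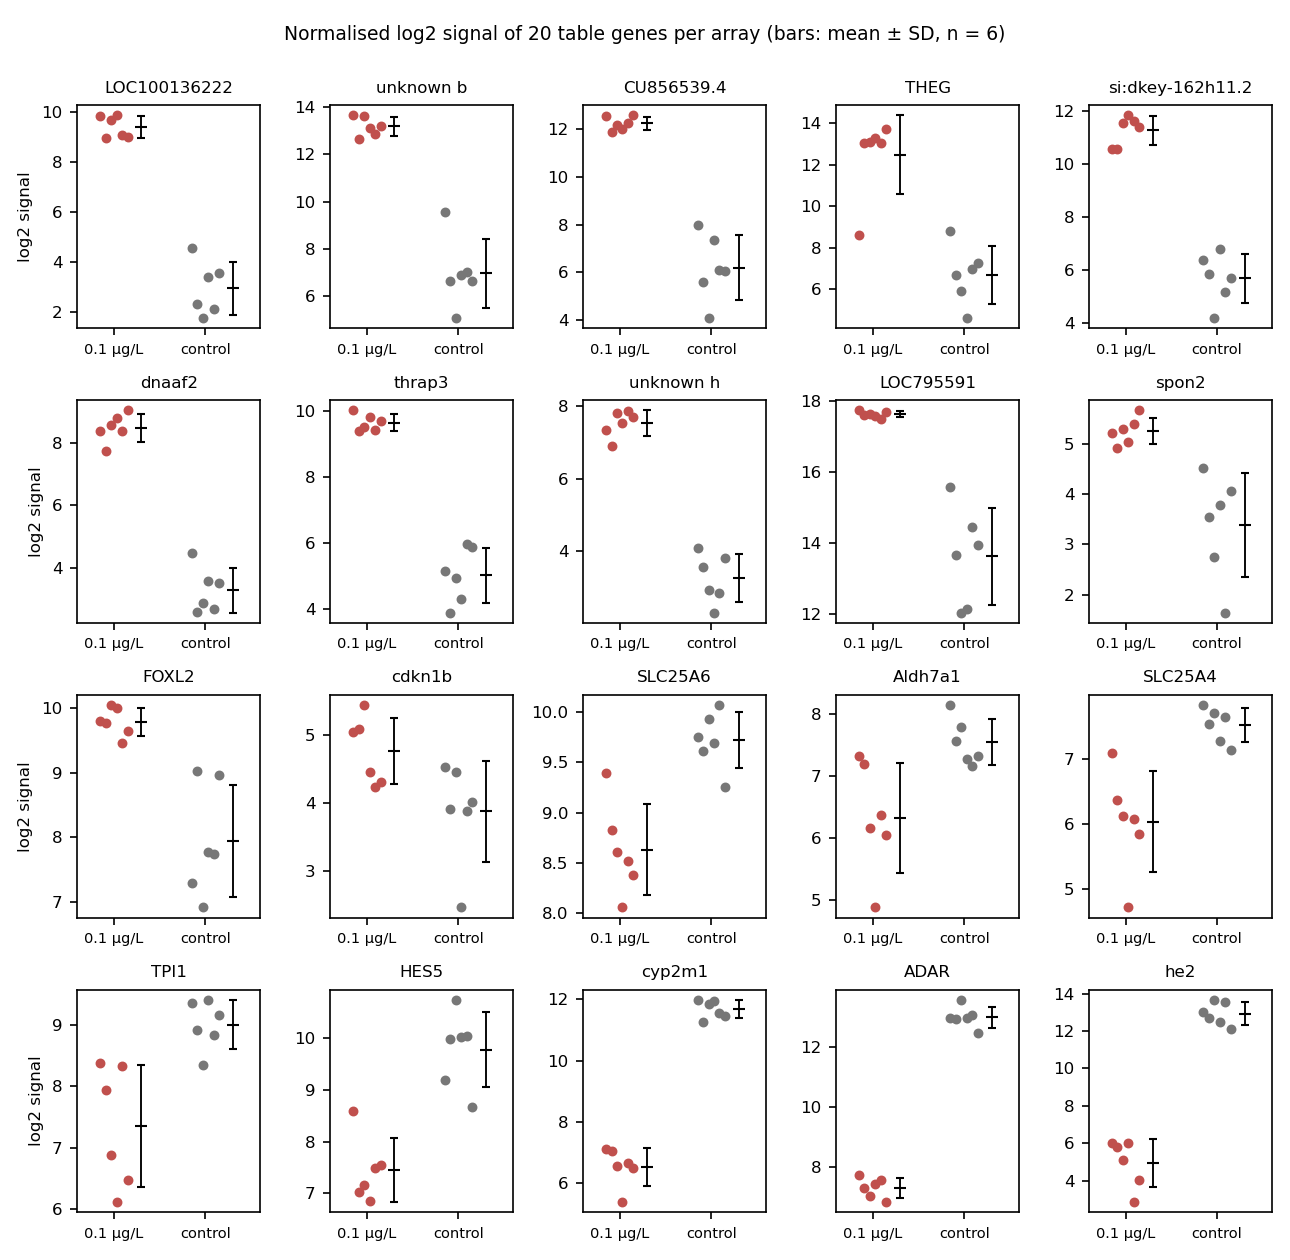
Log2 signal (y axis) of 20 genes of the 2 tables on each of the 6 arrays at 0.1 μgEE2/L (red, left) and the 6 control arrays (grey, right), with bars for the mean ± SD. Groups are far apart for he2 and ADAR and overlap for cdkn1b, and 1 exposed array lies low for THEG at 8.62.

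A further 27 probes were named by homology, mostly to proteins of other vertebrates, from a supplementary list whose copy used here is shorter than the study's text states. Its probes were selected on these arrays as called in CT1 and CT2 but not in CT3 or CT4. The study describes a filter on a change of more than 2-fold in either direction, made in CT1. Their calls in CT2 and their course over the concentrations thus follow from the selection and are given as a description. The stated filter set no direction, but the copy of the list is short, so nothing is read from the direction either. In CT2, 26 were over-expressed and 0 under-expressed, with a median log2 fold change of 1.39 (range 0.69 to 2.47) beside -0.0030 over all probes. In dose order, the number over-expressed against the control was 25 at 0.01, 26 at 0.1, 4 at 1 and 3 at 10 μgEE2/L. The number under-expressed was 0, 0, 1 and 5, beside 3063, 8625, 12745 and 13540 of all 60195 probes. Some were thus called at 1 and 10 μgEE2/L in the fit used here, although the study's selection had dropped such probes. Over the whole array the shares over-expressed were 2.83, 12.8, 19.8 and 21.7%, and these comparisons share the control arrays. The fall at 1 and 10 μgEE2/L is what the selection required, and nothing is read from it. Ptchd2 and SYN2 were the 2 that differed between 0.1 and 0.01 μgEE2/L, a contrast that called 10.5% of the array.

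Several of these genes encode parts of signalling pathways. The BMP antagonist nog3 (CUST_11142_PI425536763) had 9.17, 9.35 and 9.70 at 0.1 μgEE2/L and 6.80, 7.20 and 8.77 in the control, without overlap (log2 fold change 1.89, SE 0.26, adjusted p = 1.5e-06). The Wnt receptor FZD10 had 2 probes, of which CUST_24234_PI425536763 had 10.43, 11.21 and 11.54 at 0.1 μgEE2/L and 8.53, 9.14 and 10.27 in the control (log2 fold change 1.85, adjusted p = 3.8e-06). The other FZD10 probe, TC119501, rose by 1.52 (adjusted p = 0.0011), and all 6 exposed arrays were above every control for both. Ptchd2, a patched-domain membrane protein, had 6.20, 7.07 and 7.99 at 0.1 μgEE2/L and 4.52, 5.05 and 5.54 in the control (log2 fold change 2.00, SE 0.23, adjusted p = 1.1e-07). The transcription factor tbx2 had 5.13, 5.52 and 6.27 at 0.1 μgEE2/L and 3.66, 4.70 and 5.03 in the control.

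The tight junction protein claudin 19 was read by a pair of probes that gave nearly the same values. TC109027 had 12.68, 12.86 and 13.18 at 0.1 μgEE2/L and 11.28, 11.38 and 12.05 in the control, and CUST_6137_PI425536763 had 12.80, 13.02 and 13.18 at 0.1 μgEE2/L and 11.35, 11.52 and 12.07 in the control. Both rose without overlap, by 1.39 (adjusted p = 1.5e-05) and 1.43 (adjusted p = 8.9e-06). The largest change of the list was that of the probe annotated as metN2, a name of a bacterial transporter, with 6.94, 7.46 and 7.96 at 0.1 μgEE2/L and 4.54, 4.81 and 6.16 in the control (log2 fold change 2.47, SE 0.38, adjusted p = 1.1e-05). The RNA-binding protein Luc7l2 rose by 2.12 and the synaptic vesicle protein SYN2 by 1.63 (adjusted p = 3.8e-06 and 2.4e-07). The membrane protein MAL had 7.37, 10.99 and 11.38 at 0.1 μgEE2/L and 6.49, 7.81 and 9.82 in the control, with replicate 1 alone inside the control range (log2 fold change 2.34, SE 0.68, adjusted p = 0.010).

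The 1 probe of the list that was not called, pax2-B, lies in the dim middle. It had 1.86, 7.49 and 8.23 at 0.1 μgEE2/L and 4.65, 5.94 and 6.76 in the control, and 5 of 6 exposed arrays were above every control while replicate 1 was below all of them. Its log2 fold change was 0.69 (adjusted p = 0.53), and 1.38 (adjusted p = 0.031) with the dim middle missing. Weaker calls of the list were lost under several alternatives, among them SEPT10 (0.98, adjusted p = 0.049996) under 19 of 30 and ighv4-2 (1.15, adjusted p = 0.037) under 16 of 30.

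The array files themselves give a gene name to 49 probes, mostly genes of metabolism, stress defence and muscle. In CT2 5 rose and 10 fell, which is 30.6% called, against 27.2% of all probes. The median log2 fold change was -0.23. The share was thus close to the background, and the groups below are described by their counts only.

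Of 13 probes of muscle and tendon genes, 1 was over-expressed and 6 were under-expressed, with a median log2 fold change of -0.68. The myogenic transcription factor myf5 had 6.66, 6.71 and 6.90 at 0.1 μgEE2/L and 7.67, 8.18 and 8.91 in the control, without overlap and with little spread between the exposed arrays (log2 fold change -1.56, SE 0.17, adjusted p = 3.0e-08). It differed from 0.01 μgEE2/L as well, by -0.80 (adjusted p = 0.0014). The homeobox factor MSX1 was not well above background on any array at 0.1 μgEE2/L and had 4.47, 5.01 and 6.28 in the control, which is at least 2.56-fold lower at 0.1 μgEE2/L (adjusted p = 1.1e-05). The myosin light chain fast mlc1 had 9.33, 9.86 and 10.35 at 0.1 μgEE2/L and 7.40, 8.38 and 9.14 in the control (log2 fold change 1.52, SE 0.31, adjusted p = 0.00034). It was the over-expressed one of the group, and exceeded 0.01 μgEE2/L by 1.89 (adjusted p = 6.2e-05). The light chain fast mlc3 moved the other way, by -0.80 (adjusted p = 0.026). Fast myosin had 1.86, 9.13 and 9.98 at 0.1 μgEE2/L and 8.65, 11.03 and 12.98 in the control (log2 fold change -3.07, adjusted p = 0.0082). Its lowest array was replicate 1 in the dim middle, and the change was -2.32 with that region missing. The calls of mrf4 (at least 1.25-fold lower, adjusted p = 0.030) and scleraxis (-0.62, adjusted p = 0.033), and that of fast mlc3, were lost under 8, 12 and 8 of 30 alternatives.

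Of 8 genes of antioxidant defence, 1 was over-expressed and 1 under-expressed. Catalase, which breaks down hydrogen peroxide, had 9.95, 10.53 and 11.30 at 0.1 μgEE2/L and 11.196, 11.44 and 12.18 in the control, with 5 of 6 exposed arrays below every control (log2 fold change -0.99, SE 0.20, adjusted p = 0.00029). The probe named GR, whose identifier stands between those of a glutathione peroxidase and GST, had 7.81, 7.93 and 8.29 at 0.1 μgEE2/L and 6.92, 7.20 and 7.36 in the control. It rose without overlap by 0.83 (SE 0.12, adjusted p = 2.8e-06), and was also higher at 0.1 than at 0.01 μgEE2/L by 0.57 (adjusted p = 0.0010).

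Of 9 genes of protein breakdown and autophagy, 0 were over-expressed and 2 under-expressed. LC3B, a protein of the autophagosome membrane, had 11.49, 12.002 and 12.11 at 0.1 μgEE2/L and 12.30, 13.02 and 13.06 in the control (log2 fold change -0.96, SE 0.14, adjusted p = 3.5e-06). The groups did not overlap, and LC3B was lower at 0.1 than at 0.01 μgEE2/L by -0.72 (adjusted p = 0.00053). The muscle ubiquitin ligase fbx32 had 7.87, 7.90 and 8.49 at 0.1 μgEE2/L and 8.42, 8.51 and 8.92 in the control (log2 fold change -0.55, adjusted p = 0.041), a call lost under 14 of 30 alternatives.

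Of 5 probes of glucose metabolism, 2 were over-expressed, both of them transporters. Glucose transporter 1 had 7.71, 7.97 and 8.28 at 0.1 μgEE2/L and 6.65, 6.93 and 7.95 in the control (log2 fold change 0.93, SE 0.20, adjusted p = 0.00065). The highest control was replicate 4, and the other 5 controls were below every exposed array. Glut2 was dim, with 3 of 6 arrays well above background at 0.1 μgEE2/L and 1 of 6 in the control, and its call (1.86, SE 0.66, adjusted p = 0.037) was lost under 14 of 30 alternatives. None of the 2 lipid genes and none of the 7 nuclear receptors was called in limma, and at an unadjusted p below 0.05 the numbers were 2 and 2. Over the whole array 22302 of 60195 probes were below that unadjusted threshold, and nothing is read from these counts.

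Among the remaining named probes, Wnt4a and rhbg2a were called. Wnt4a, a ligand of the family that acts in ovarian development of mammals, was not well above background on any array at 0.1 μgEE2/L and had 3.49, 4.06 and 5.74 in the control, where 5 of 6 arrays were. It was at least 1.51-fold lower at 0.1 μgEE2/L (adjusted p = 0.00068), and its mean at 0.01 μgEE2/L was 4.47, so that it was at least 1.71-fold lower at 0.1 than at 0.01 μgEE2/L (adjusted p = 0.00063). The Rh glycoprotein rhbg2a, an ammonia transporter of fish gills, had 5.33, 5.87 and 7.13 at 0.1 μgEE2/L and was not well above background in any control. It was at least 7.17-fold higher at 0.1 μgEE2/L (adjusted p = 1.6e-06). It was not well above background at 0.01 μgEE2/L either, and was at least 7.76-fold higher at 0.1 than at 0.01 μgEE2/L (adjusted p = 3.8e-06). Its mean was 6.12 at 0.1, 7.51 at 1 and 6.35 at 10 μgEE2/L, and the difference of 0.1 minus 1 μgEE2/L was not called (-1.39, adjusted p = 0.093). With normexp background correction the fitted log2 fold changes of the dim probes of rhbg2a, MSX1 and Wnt4a were 0.99, -0.57 and -0.26, each still past the threshold. These are smaller in size than the log2 bounds of 2.84, 1.35 and 0.60 above. Normexp as used here also adds an offset of 50 intensity units, which by itself makes changes of dim probes smaller. The parts of the offset and of the background estimate were not separated. The bounds are thus no minimum under every processing.

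**Figure D5:**
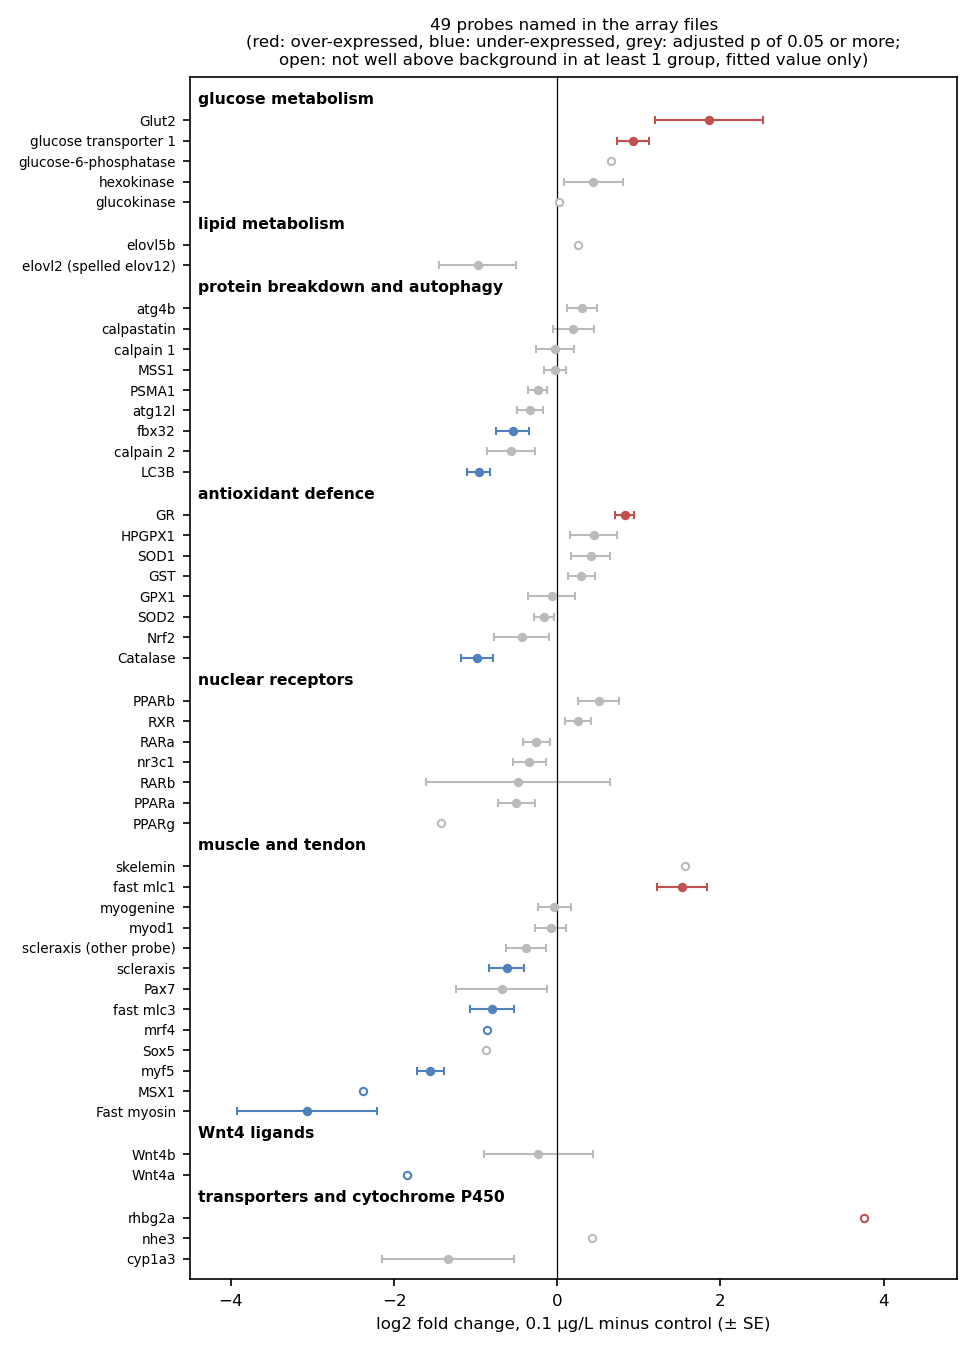
Log2 fold change of 0.1 μgEE2/L minus control ± SE (x axis) for the 49 probes named in the array files (y axis), grouped by list. Red marks the 5 over-expressed and blue the 10 under-expressed probes, with Fast myosin lowest at -3.07. Open points are fitted values of probes not well above background on any array of at least 1 group, among them rhbg2a, MSX1 and Wnt4a, whose position is no measured change.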

How the data were processed

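RNA of gonad pools was hybridised to single-color Agilent arrays. The authors read the scans with Feature Extraction 10.7.3.1, and the deposited processed signal is an intensity after background adjustment, not normalised between arrays. The same deposited files hold spot and local background intensities and marks for outlier, saturated and well-above-background spots. The authors also deposited log2 values, made from the processed signal by quantile normalisation over the 30 arrays. For 3 pairs of pools of a concentration (replicates 2 and 4 of the control, 1 and 6 at 0.1 μgEE2/L and 4 and 5 at 10 μgEE2/L), the columns of that table are exchanged relative to the scanner files, whose labels were used.

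Control spots were left out, spots of a probe were averaged (1462 probes had several), outlier spots were dropped where another remained, and log2 values were quantile normalised over all arrays. Samples were grouped by the concentration in their labels. A limma model (lmFit, contrasts.fit, eBayes, 2.89 prior degrees of freedom) without covariates was fitted to 30 arrays and tested on simulated data. R 4.3.3, limma 3.58.1, Python 3.11.15, numpy 2.4.6, pandas 2.3.3 and matplotlib 3.10.9 were used. Positions were compared by exact permutation tests. Arrays carry no read depth, and the number of pools limits the precision.

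Named probes are the genes of the study's tables of specific and sensitive biomarkers (23 of 24 genes found, each as the single probe whose printed values in CT1 and CT2 match a fit of the deposited log2 values), 27 probes of a supplementary list, 49 probes named in the array files (4 of 7 RefSeq accessions found in the gene table of USDA_OmykA_1.1), and in each direction the 2 unannotated probes with the largest change and the 2 with the largest lower bound. The lists and members were chosen with earlier results of these data known. Sequences of probes were not used here. Alternatives were 75th percentile scaling, the deposited log2 values, normexp (offset 50), a filter on dim probes, the slide, tank or replicate number as a block, tank means, the 12 arrays alone, array weights, Scheffe's criterion, the dim middle or its arrays left out, array brightness as a covariate, outlier spots kept and each array left out. The tables' tank labels, tank means of the positions and leaving out replicates 2 and 6 of the control were added after the data had been seen.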

Additional observations from a re-analysis of the deposited data

Results flagged for a closer look

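In each group of 6 arrays, the highest and lowest value of a named probe was compared with the rest by Dixon's test. This singled out 23 values among 148 groups tested, where chance alone would give about 1 in 20, and 11 of the 23 lie in the dim middle of replicate 1 at 0.1 μgEE2/L or of replicate 4 of the control. All values are log2 signals.

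In that region of replicate 1 at 0.1 μgEE2/L, THEG was 8.62 against 13.03 to 13.69 on the other exposed arrays, MAL was 7.37 against 10.77 to 11.38, gtpb6 was 9.84 against 11.08 to 11.69, and pax2-B, Fast myosin and cyp1a3 were each 1.86 against at least 6.83. In the same region of replicate 4 of the control, cdkn1b was 2.46, SEPT10 3.71, gtpb6 7.63, cyp1a3 4.23 and TC94754 6.75, each below the other controls. The uncalled cyp1a3, a cytochrome P450 induced by aryl hydrocarbons, had a log2 fold change of -1.34 (adjusted p = 0.24 in limma), and -1.13 (adjusted p = 0.028) with the dim middle missing.

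Outside that region, cyp2m1 was 5.38 on replicate 4 at 0.1 μgEE2/L against 6.48 to 7.10 on the other exposed arrays, and the stress sensor Ern1 was 7.02 on replicate 6 against 5.74 to 6.12. Replicate 2 at 0.1 μgEE2/L was low for TC94769 (7.74 against 11.10 to 13.02) and CUST_28634_PI425536763 (11.08 against 14.45 to 15.95), and replicate 2 of the control was high for TC94769 (6.86 against 3.04 to 4.29) and CUST_28634_PI425536763 (10.53 against 7.0 to 7.89). Replicate 1 of the control was high for both claudin 19 probes, with 12.05 for TC109027 and 12.08 for CUST_6137_PI425536763. Replicate 4 of the control was high for glucose transporter 1 (7.95 against 6.65 to 7.14) and for PPARg (8.01 against 3.14 to 4.64), a receptor of fat cell differentiation that was not called (adjusted p = 0.12) and was not well above background on any array at 0.1 μgEE2/L. Replicate 5 of the control was high for MSX1 (6.28 against 4.47 to 5.08) and for rhbg2a (4.50 against 1.74 to 2.68), without being well above background for rhbg2a.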

How the results depend on the processing

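The number of probes called in CT2 was 16346 and ranged from 13958 (without replicate 3 of the control) to 17558 (without replicate 6 of the control) as each of the 12 arrays was left out, with 6480 to 8441 over-expressed, 7478 to 9503 under-expressed and 7240 to 9111 past a 2-fold change. With the 12 arrays alone, 10385 probes were called, 4700 over-expressed and 5685 under-expressed. Scheffe's criterion over the 5 groups left 7156, with 3220 over-expressed, 3936 under-expressed and 5246 past a 2-fold change. Normexp background correction left 3752 probes past a 2-fold change, against 8006. Its offset of 50 intensity units by itself makes changes of dim probes smaller, and by how much was not tested. Causes of the other shifts were not tested. The replicate number as a block gave 16423 probes, although deviations of same-numbered arrays of the 2 groups correlated between -0.22 and 0.31, so the number does not pair them. Means of tanks gave 13634 probes. More probes were called with array weights (18995), with array brightness as a covariate (18841) and with the dim middle set to missing (18179). With the mean position of a tank as the unit, the differences of 0.25 from 0.01 μgEE2/L and of -0.31 from 1 μgEE2/L were the same but passed no threshold (exact permutation p = 0.1, the smallest that 3 against 3 tanks allow), also with the tables' tank labels. Without replicates 2 and 6 of the control, 82 probes were well above background only at 0.1 μgEE2/L, against 33, a number that can only rise when controls are left out. Of 69 named probes called, the 3 counted but not given one by one left aside, 48 stayed called under every alternative and 21 were lost under some, most often under Scheffe's criterion (20) and with the 12 arrays alone (12), and 0 changed direction. Probes not above background in a group have only a bound, and the number of pools and tanks limits every mean.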

Other observations

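The over-expressed probes with a log2 fold change over 2.5 formed 2 clouds in the plot of fold change against adjusted p, and the division at an adjusted p of 0.0001 was chosen after the values had been seen. For the 437 probes below 0.0001, the median log2 signal was 9.40 to 10.05 on the arrays at 0.1 μgEE2/L and 6.11 to 6.88 on the controls, with replicates 2 and 6 of the control at 6.21 and 6.11. For the 228 probes from 0.0001 to 0.05, the median was 10.86 to 12.41 at 0.1 μgEE2/L, while replicates 2 and 6 of the control were at 11.62 and 11.80 and replicates 1, 3, 4 and 5 at 5.13, 7.12, 6.96 and 6.29. Replicates 2 and 6 were both above the other 4 controls for 184 of these 228 probes and for 28 of the 437. The arrays at 0.01 μgEE2/L had medians of 9.88 to 11.93 for the 228 probes and of 7.08 to 8.16 for the 437. A division by adjusted p itself separates probes by their spread, so these values are a description without a test. The probes that lie in the dim middle made up 24.6% of the 228 and 21.3% of the 437. Over the whole array, 14768 of 60195 probes lie there, so nothing is read from these shares.

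Probes were called less often where the signal was dim. With the probes ranked by mean signal over the 12 arrays and divided into 4 equal classes, 15.2, 28.5, 32.1 and 32.8% were called from the dimmest to the brightest. In the middle of the array 22.7% of probes were called, against 28.6% outside it.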
